A study of Mus musculus with 12 samples.

Results

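The genes of complement and coagulation were followed across mouse liver organoids and sorted liver cells. Their members are 36 gene symbols of plasma factors, inhibitors and regulators of both cascades, taken by symbol and by no measured value. A gene was measured by the array row that names it and no other gene, and by the row with the highest mean where there were several. This gave 33 of the 36 members among 19937 genes on the array. C3 and Cpb2 were not analysed here. Klkb1 had only a row shared with Cyp4v3 and was left out of all counts.

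Total RNA had been hybridised to 12 Affymetrix MoGene 1.0 ST arrays, 3 in each of 4 groups, all on a C57Bl6 background. Yap-on organoids came from livers in which Yap, a transcriptional coactivator held in check by the Hippo pathway, had been switched on for 3 weeks, and were kept on doxycycline for 2 further weeks of culture, so that Yap stayed on. Yap-off organoids had the same 3 weeks of Yap in the liver and then 2 weeks of culture without doxycycline. Wild-type organoids were also grown for 2 weeks, and the fourth group held YFP-positive liver cells sorted from uninduced animals and called hepatocytes. The labels name neither what drives Yap expression, nor age or sex, nor whether animals were pooled, and they do not say that replicates came from separate animals. All p-values therefore cover the spread between the libraries alone, part or all of which may be technical.

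Fibrin clots form when a chain of serine proteases, most of them made as inactive plasma proteins by hepatocytes, ends in thrombin and thrombin cuts fibrinogen. Complement runs through a comparable chain: recognition molecules activate proteases that build a C3 convertase, and a later enzyme cuts C5, so that the terminal proteins assemble a pore in a target membrane. The hepatocyte secretes most of the factors of both chains, while some members, such as C1q and properdin, come largely from myeloid cells, and factor VIII comes largely from endothelium.

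Values are log2 of the deposited intensity. The array medians lay between 4.14 and 4.34, and no detection call was used here, so that a value below that level cannot be told from background. Yap1 itself read 7.45, 7.40 and 7.28 in the Yap-on arrays and 7.35, 7.21 and 6.88 in the Yap-off arrays, a log2 difference of 0.23 (SE 0.56, adjusted p = 0.83) by limma, so its row does not separate them. It read 6.70, 7.50 and 5.96 in libraries labelled wild-type organoid and 7.20, 4.93 and 7.07 in those labelled hepatocyte. Whether the row detects the RNA of the induced Yap was not tested. Xist was low in all Yap-on arrays (3.14, 3.15 and 3.20) and high in all Yap-off arrays (9.20, 8.49 and 8.98), and the Y-linked Eif2s3y ran the other way, at 7.42, 7.13 and 7.40 in Yap-on and 2.85, 2.63 and 2.50 in Yap-off. Xist read 3.30, 3.14 and 3.26 in libraries labelled wild-type organoid and 8.82, 2.995 and 8.999 in those labelled hepatocyte, and Eif2s3y read 6.19, 7.05 and 7.11 in wild-type organoids and 2.78, 6.81 and 2.88 in hepatocytes. The sex of the source animals therefore cannot be told apart from the Yap state between Yap-on and Yap-off organoids, nor from the group between Yap-off and wild-type organoids. Yap-on and wild-type organoids match in these genes, and the hepatocyte label holds both patterns, with library 2 unlike libraries 1 and 3. Once hepatocyte 2 is left out, sex cannot be told apart from the label between hepatocytes and either Yap-on or wild-type organoids.

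Some libraries went against their labels. The summed level of 10 macrophage markers was 13.41 and 14.12 in libraries labelled wild-type organoid 1 and 3 and 14.37 in the library labelled hepatocyte 2, against 9.18 in wild-type organoid 2 and 8.80 and 9.18 in hepatocyte 1 and 3. The 10 endothelial markers behaved alike, with sums of 13.77 and 13.03 in wild-type organoid 1 and 3 and 11.76 in hepatocyte 2, and between 6.85 and 7.38 in the other libraries of these groups. The biliary keratin Krt19 was high in libraries labelled wild-type organoid 2, hepatocyte 1 and hepatocyte 3, at 9.28, 10.21 and 9.82. It read 4.28 and 4.92 in wild-type organoid 1 and 3 and 4.95 in hepatocyte 2. Of the 7 measured biliary markers, Krt7 and Sox9 split these libraries in the same way. Epcam and Prom1 did so as well, without overlap but at low levels. Epcam read 4.95, 3.76 and 4.13 in wild-type organoid 2, hepatocyte 1 and hepatocyte 3. It read 3.65, 3.31 and 3.59 in wild-type organoid 1 and 3 and hepatocyte 2. Cftr and Cldn4 overlapped between these sets. Epcam, Cftr, Prom1 and Cldn4 reached at most 4.95 (Epcam in wild-type organoid 2) in both labelled groups. Albumin, the hepatocyte's main secreted protein, was between 11.53 and 12.33 in all 3 libraries labelled hepatocyte. It was also between 11.94 and 12.23 in those labelled wild-type organoid, so it does not separate these libraries. Cyp2e1, another of 10 hepatocyte markers, read 3.16, 10.14 and 3.22 in libraries labelled hepatocyte. In those labelled wild-type organoid it read 10.03, 2.74 and 9.90. Asgr1 split these libraries as Cyp2e1 did, while Hnf4a and Apob split them the other way. Hnf4a read 8.21, 7.16 and 8.46 in libraries labelled hepatocyte and 6.56, 8.91 and 7.435 in those labelled wild-type organoid. Apob read 10.74, 8.81 and 10.84 in hepatocyte and 9.65, 10.98 and 8.82 in wild-type organoid libraries. The remaining hepatocyte markers overlapped between these sets of libraries. The sum of the 10 was between 13.35 and 14.25 in hepatocyte and between 13.74 and 14.07 in wild-type organoid libraries. In the macrophage and endothelial markers and Krt19, hepatocyte 2 thus resembled wild-type organoid 1 and 3, and wild-type organoid 2 resembled hepatocyte 1 and 3, which is why wild-type organoid 2 and hepatocyte 2 are the pair left out. In Xist and Eif2s3y, wild-type organoid 2 did not resemble hepatocyte 1 and 3. Whether labels were exchanged was not tested, and a level or difference given for either group is that of the label. Counts called on these groups are given with and without this pair, and differences without it are given for a few members. The Yap-on and Yap-off arrays were uniform, with correlations within each group of 0.992 to 0.995 and 0.975 to 0.983.

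Most complement and coagulation genes fell in Yap-on organoids, and the fall reached the lower end of the array's range for most of them. The median of the 33 members was 3.55, 3.57 and 3.42 in the Yap-on arrays and 8.29, 8.85 and 9.16 in the Yap-off arrays. In every Yap-on array 26 members lay below that array's median, whereas only C6 and Mbl1 did so in every Yap-off array. By limma, 28 of the 33 fell in Yap-on against Yap-off organoids at adjusted p under 0.05 and none rose, against 4.36% of all genes called lower and 7.09% called higher. These shares are also the background of the counts by role given below. The median log2 difference was -4.51, against -0.08 over all genes. In 32 of the 33 every Yap-on array lay below every Yap-off array, which held for 28.9% of all genes.

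The fit across 12 arrays pools the spread of the mixed groups. When the 6 arrays of the comparison were fitted alone, 31 members fell, against 12% of genes called lower and 19.1% called higher, and the added members were Pros1, C8a and C8b. Markers moved in the same comparison by the fit across 12 arrays: 7 of 10 hepatocyte markers fell (median log2 difference -5.18) and 3 of the 7 measured biliary markers rose (median 3.43). In the fit across 12 arrays 4.36% of all genes were called lower and 7.09% higher. None of 10 macrophage, 10 endothelial and 5 platelet markers was called, and 1 of 8 stellate markers fell. The mixed groups widen the spread of macrophage and endothelial markers in that fit, so a missing call there does not show equal levels. Single macrophage markers ran both ways. Lyz2 read between 2.59 and 3.11 in Yap-on and between 5.50 and 5.78 in Yap-off arrays. Marco, Adgre1 and Cd5l were also lower in every Yap-on array, but lay below the array median in both groups. Cd68 read between 6.35 and 6.84 in Yap-on and between 4.54 and 5.85 in Yap-off arrays. Cd14 read between 9.55 and 9.88 in Yap-on and between 9.01 and 9.22 in Yap-off arrays. The other macrophage markers overlapped. Summed macrophage markers were between 9.88 and 10.15 in Yap-on and between 9.38 and 9.66 in Yap-off arrays. Summed hepatocyte markers were between 11.66 and 11.87 in Yap-on and between 14.73 and 15.02 in Yap-off arrays, and summed biliary markers between 12.97 and 13.22 in Yap-on and between 9.37 and 9.98 in Yap-off arrays. In bulk RNA, fewer cells of a type and less RNA per cell cannot be told apart.

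**Figure D1:**
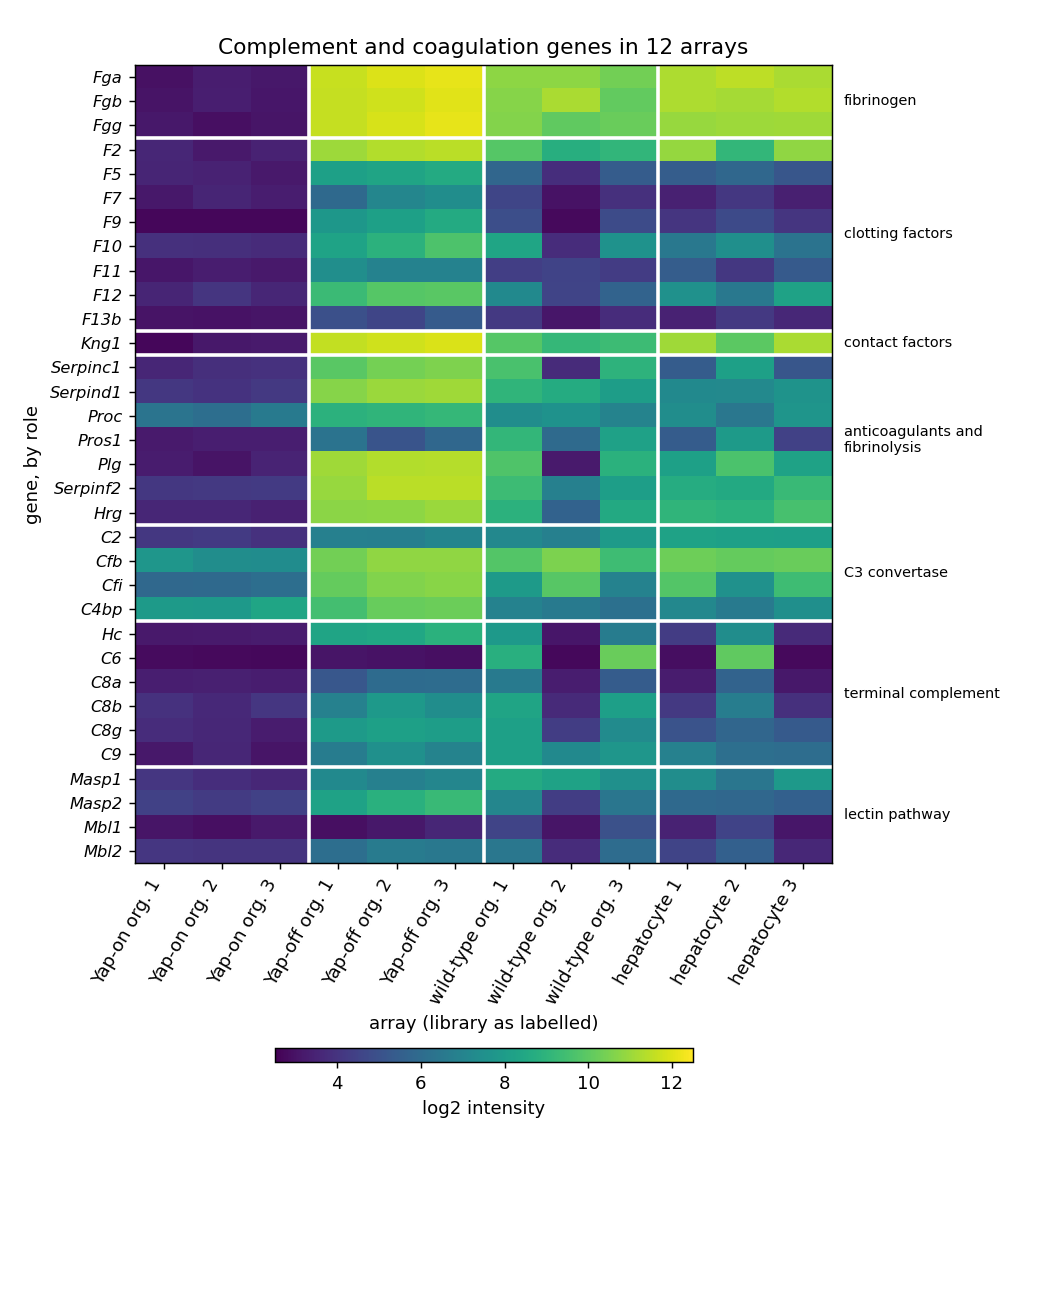
Log2 intensity (colour) of the 33 measured complement and coagulation genes (rows, by role) in each of 12 arrays (columns, named as labelled). In the Yap-on columns 26 genes lie below the array median in every array, and in the Yap-off columns C6 and Mbl1 do.

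Fibrinogen, the hexamer of Aα, Bβ and γ chains that thrombin turns into fibrin, had the largest median difference of any role, -8.78. Fgg, the γ chain, read 3.15, 2.90 and 3.05 in Yap-on arrays and 11.62, 11.88 and 12.13 in Yap-off arrays. It read 10.65, 10.06 and 10.22 in libraries labelled wild-type organoid and 10.96, 11.05 and 11.09 in those labelled hepatocyte. The Yap-on arrays lay apart from all 9 others, which ranged over little more than 2 log2 units. The difference between Yap-on and Yap-off organoids was -8.84 (SE 0.18, adjusted p = 2.7e-09), a linear fold of 459.6. Fgb, the Bβ chain, read 3.03, 3.33 and 3.10 in Yap-on and 11.62, 11.79 and 12.05 in Yap-off arrays, a difference of -8.67 (SE 0.25, adjusted p = 2.4e-08). Fga, the Aα chain, differed by -8.78 (SE 0.17, adjusted p = 2.7e-09). The genes lie side by side on chromosome 3, with no other protein-coding gene between Fga and either neighbour, and all 3 were below the array median in every Yap-on array, where the size of a fall is set in part by background.

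The 250 bases before the start of each fibrinogen gene are shown because these neighbouring genes all fell. They are RefSeq sequences of build GRCm38.p6, at chr3:83025903-83026152 on the plus strand for Fga, chr3:83049864-83050113 on the minus strand for Fgb and chr3:83007474-83007723 on the plus strand for Fgg, each read 5′ to 3′ along the gene. Capitals mark letters that match GTTAATNAT (a form of the HNF1 site) or TTGCNNAA (a form of the C/EBP site) on either strand.
Fga: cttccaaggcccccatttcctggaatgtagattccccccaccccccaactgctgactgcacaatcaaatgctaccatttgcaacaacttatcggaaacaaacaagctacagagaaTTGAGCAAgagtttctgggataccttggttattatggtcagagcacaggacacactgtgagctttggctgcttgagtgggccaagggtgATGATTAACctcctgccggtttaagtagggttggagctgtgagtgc
Fgb: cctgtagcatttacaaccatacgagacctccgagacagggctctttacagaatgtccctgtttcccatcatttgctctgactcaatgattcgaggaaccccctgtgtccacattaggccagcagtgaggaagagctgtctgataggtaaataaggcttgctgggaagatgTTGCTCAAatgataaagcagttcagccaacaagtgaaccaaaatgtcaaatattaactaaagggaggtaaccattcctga
Fgg: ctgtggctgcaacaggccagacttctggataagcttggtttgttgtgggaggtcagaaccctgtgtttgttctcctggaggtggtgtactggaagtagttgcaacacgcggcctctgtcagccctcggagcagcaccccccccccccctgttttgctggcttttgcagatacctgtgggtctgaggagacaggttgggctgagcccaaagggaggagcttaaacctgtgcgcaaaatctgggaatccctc
Fga held a match to each motif, Fgb held 1 C/EBP match and Fgg held none. A set of 4 motifs was searched on both strands in the 26 of 33 members with a RefSeq promoter. GTTAATNAT was found in 4 members (Fga, F13b, Hc and C4bp), 15.4%, against 0.87% of 27025 genes. TTGCNNAA was found in 6 members (Fga, Fgb, F9, F11, Hrg and C9), 23.1%, against 10.84% of genes. TGTTTAC, a forkhead (FOXA) form, was found in F11 alone, 3.8% of members against 3.54% of genes, and CAAAGTCCA, an HNF4 form, in no member, against 0.45% of genes. No match overlapped another. These are letter matches, not measured sites, and no test was made of them. Kng1, Proc, Plg, C2, Cfb, Cfi and Masp1 had no promoter entry.

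Fga has a second array row, which lists the same RefSeq transcripts as the row used. It read 3.18, 3.16 and 3.47 in Yap-on and 9.56, 9.60 and 10.37 in Yap-off arrays, so both rows fall in Yap-on organoids. In libraries labelled wild-type organoid it read 5.95, 9.08 and 5.05, and 8.30, 5.68 and 8.17 in those labelled hepatocyte. The row used read 10.82, 10.80 and 10.37 and 11.29, 11.52 and 11.23 in the same libraries. The second row thus varied by over 2 log2 units within each of these groups, with its lower values in wild-type organoid 1 and 3 and hepatocyte 2, the libraries rich in macrophage and endothelial transcripts, and the row used did not. The cause was not tested.

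**Figure D2:**
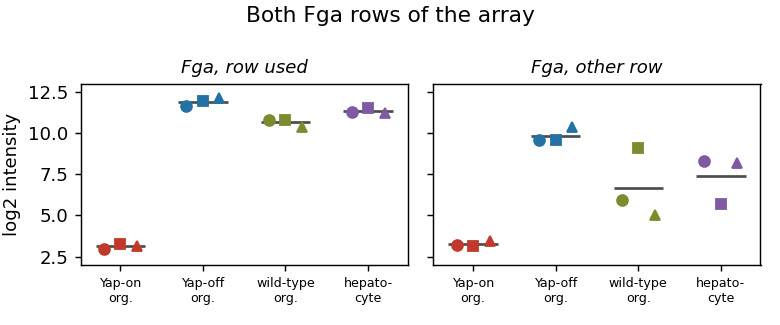
Log2 intensity (vertical axis) of both array rows of Fga in 4 groups of 3 libraries (circle, square and triangle are libraries 1, 2 and 3, the line is the mean). Both rows are between 2.94 and 3.47 in Yap-on arrays, while the rows differ in libraries labelled wild-type organoid and hepatocyte.

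All 8 measured clotting factors fell in Yap-on organoids against Yap-off organoids, with a median log2 difference of -5.07. F2, prothrombin, fell most: it read 3.58, 3.18 and 3.46 in Yap-on and 11.05, 11.35 and 11.46 in Yap-off arrays, and 9.85, 8.78 and 9.07 in libraries labelled wild-type organoid and 10.92, 9.12 and 10.84 in those labelled hepatocyte. Its difference was -7.88 (SE 0.45, adjusted p = 2.8e-06), and no Yap-on array came within 5 log2 units of any other. F13b, the carrier subunit of the fibrin-crosslinking factor XIII, fell least, with 3.04, 3.001 and 3.05 in Yap-on and 4.94, 4.59 and 5.36 in Yap-off arrays, a difference of -1.94 (SE 0.29, adjusted p = 0.0022). It was low everywhere, at 4.15, 3.10 and 3.79 in libraries labelled wild-type organoid and 3.45, 4.17 and 3.61 in those labelled hepatocyte.

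Between these lay the proteases and cofactors upstream of thrombin. F12, which starts the contact route, differed by -5.98, F11, which it activates, by -3.91, and F9, the next protease and the gene affected in haemophilia B, by -5.52. F7, the partner of tissue factor, differed by -3.47. F10, which turns prothrombin into thrombin, and F5, its cofactor, differed by -5.16 and -4.99, with the largest adjusted p of the class for F10 (0.0081). F9 read 2.68, 2.67 and 2.67 in Yap-on arrays, below the array median, against 7.79, 8.20 and 8.61 in Yap-off arrays. F7 and F10 are neighbours on chromosome 8, next to Proz, which encodes the factor X regulator protein Z and differed by -4.45 (SE 0.49, adjusted p = 0.0003).

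Kng1, kininogen, the cofactor of the contact route and source of bradykinin, was the only measured contact member besides F11 and F12. It read 2.69, 3.13 and 3.24 in Yap-on and 11.60, 11.78 and 11.95 in Yap-off arrays, a difference of -8.76 (SE 0.32, adjusted p = 1.1e-07). In libraries labelled wild-type organoid it read 9.85, 9.18 and 9.34, and 11.07, 9.998 and 11.25 in those labelled hepatocyte. Every Yap-on array was below and every Yap-off array above all of these.

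**Figure D3:**
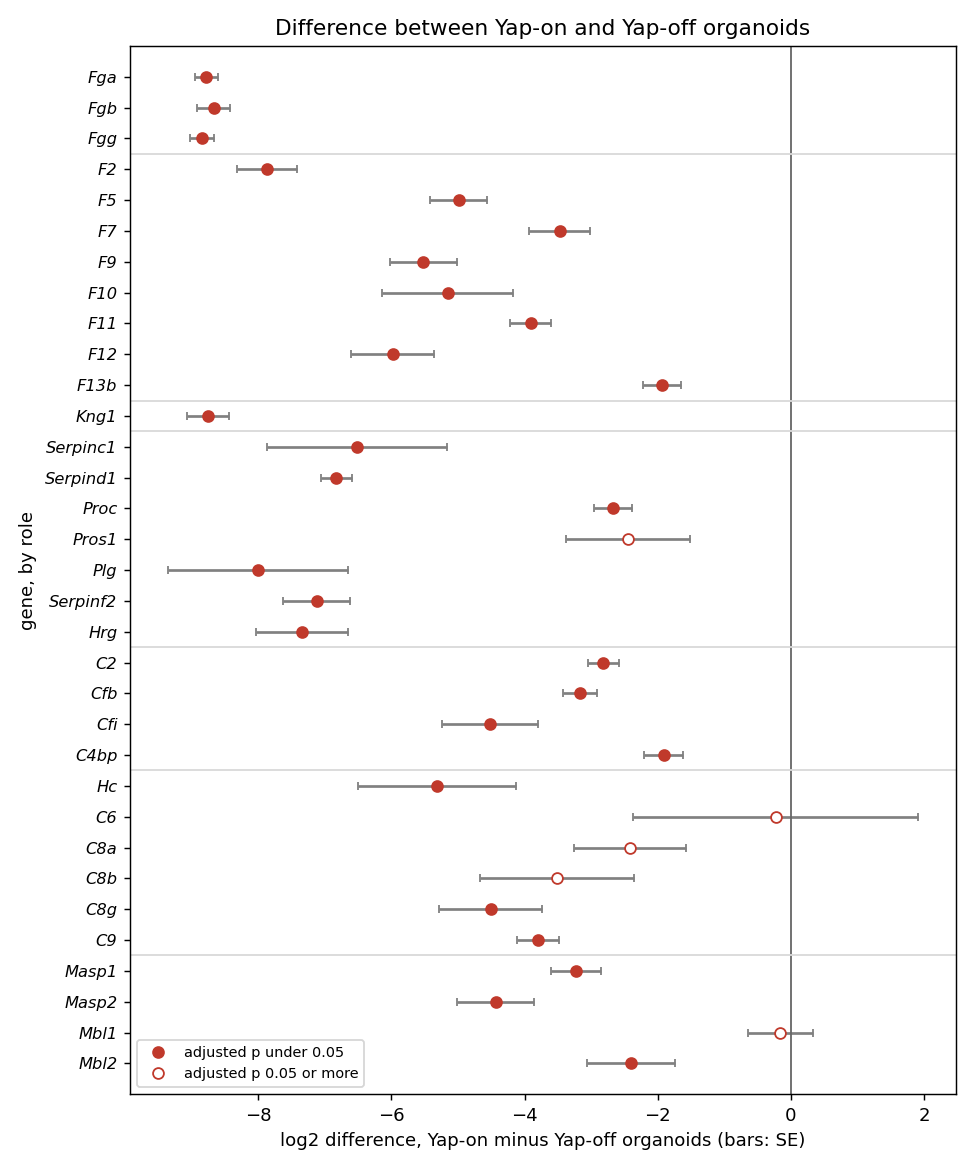
Log2 difference, Yap-on minus Yap-off organoids, for each of 33 genes by role, with limma's SE as bars (12 arrays). Filled points had adjusted p under 0.05 (28 genes), open points did not (Pros1, C6, C8a, C8b and Mbl1), and every point lies left of 0.

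Natural anticoagulants and the fibrin-dissolving system fell as well, 6 of the 7 measured genes, with a median difference of -6.83. Plg, plasminogen, the precursor of the protease that dissolves fibrin, read 3.28, 3.02 and 3.50 in Yap-on and 11.07, 11.36 and 11.39 in Yap-off arrays, a difference of -8.01 (SE 1.36, adjusted p = 0.0043). It read 9.74, 3.21 and 8.89 in libraries labelled wild-type organoid, of which library 2 was as low as the Yap-on arrays, and 8.17, 9.65 and 8.26 in those labelled hepatocyte. Serpinc1, antithrombin, differed by -6.52 (SE 1.35, adjusted p = 0.013). Its level also split inside the other groups, at 9.61, 3.73 and 8.96 in libraries labelled wild-type organoid and 5.39, 8.17 and 5.17 in those labelled hepatocyte, and its call was lost when Yap-on 1 was left out (adjusted p = 0.053).

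Serpind1, heparin cofactor II, another thrombin inhibitor, differed by -6.83 (SE 0.23, adjusted p = 8.0e-08). Serpinf2, the plasmin inhibitor α2-antiplasmin, differed by -7.13 and Hrg, a histidine-rich glycoprotein that binds plasminogen and heparin, by -7.34. Proc, protein C, which inactivates factors V and VIII, kept a measurable level: it read 6.37, 6.13 and 6.59 in Yap-on and 8.92, 9.02 and 9.16 in Yap-off arrays, a difference of -2.67 (SE 0.29, adjusted p = 0.0003). Pros1, protein S, its cofactor, had the smallest difference of the class, with 3.24, 3.35 and 3.32 in Yap-on and 6.32, 5.10 and 5.85 in Yap-off arrays. The arrays did not overlap, but the difference of -2.45 (SE 0.93, adjusted p = 0.13) was not called across 12 arrays, while the 6 arrays alone gave adjusted p = 0.00099. Libraries labelled wild-type organoid spread widely in it, at 9.13, 5.95 and 8.21, as did those labelled hepatocyte, at 5.40, 7.94 and 4.44.

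In complement, the 4 measured genes of the C3 convertase and its control all fell, with a median difference of -2.99. Cfi, factor I, the protease that cuts C3b and C4b, had the largest difference. It read 5.88, 5.91 and 6.11 in Yap-on and 10.15, 10.59 and 10.73 in Yap-off arrays, a difference of -4.52 (SE 0.72, adjusted p = 0.0033). Cfb, factor B, the catalytic part of the alternative convertase, read 7.74, 7.42 and 7.38 in Yap-on and 10.36, 10.84 and 10.85 in Yap-off arrays, a difference of -3.17 (SE 0.26, adjusted p = 3.7e-05). C2, its counterpart in the classical and lectin convertase, lies beside Cfb on chromosome 17 and differed by -2.82 (SE 0.24, adjusted p = 4.7e-05). Its Yap-on arrays read 4.13, 4.19 and 3.94, close to the array median, against 6.86, 6.81 and 7.05 in Yap-off arrays.

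C4bp, the C4b-binding protein that helps factor I to take the classical convertase apart, fell least of these and stayed above the array median in every Yap-on array, as did Cfb, Cfi, Proc and Masp2. It read 7.94, 7.89 and 8.37 in Yap-on and 9.49, 10.18 and 10.24 in Yap-off arrays, a difference of -1.91 (SE 0.29, adjusted p = 0.0025). Libraries labelled wild-type organoid read 6.94, 6.57 and 6.18 and those labelled hepatocyte 7.18, 6.62 and 7.50. All Yap-on arrays lay above all 6 of these, and all Yap-off arrays lay higher still. Its 250 upstream bases (chr1:130661619-130661868, minus strand, GRCm38.p6, RefSeq) are shown because it stayed measurable in Yap-on organoids and holds, in capitals, the HNF1 letters that Fga has on the other strand.
C4bp: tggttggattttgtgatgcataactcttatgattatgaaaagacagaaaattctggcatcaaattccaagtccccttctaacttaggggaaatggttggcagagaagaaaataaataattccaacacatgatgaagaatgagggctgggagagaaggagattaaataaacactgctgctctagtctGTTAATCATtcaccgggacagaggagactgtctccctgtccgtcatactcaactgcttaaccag

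**Figure D4:**
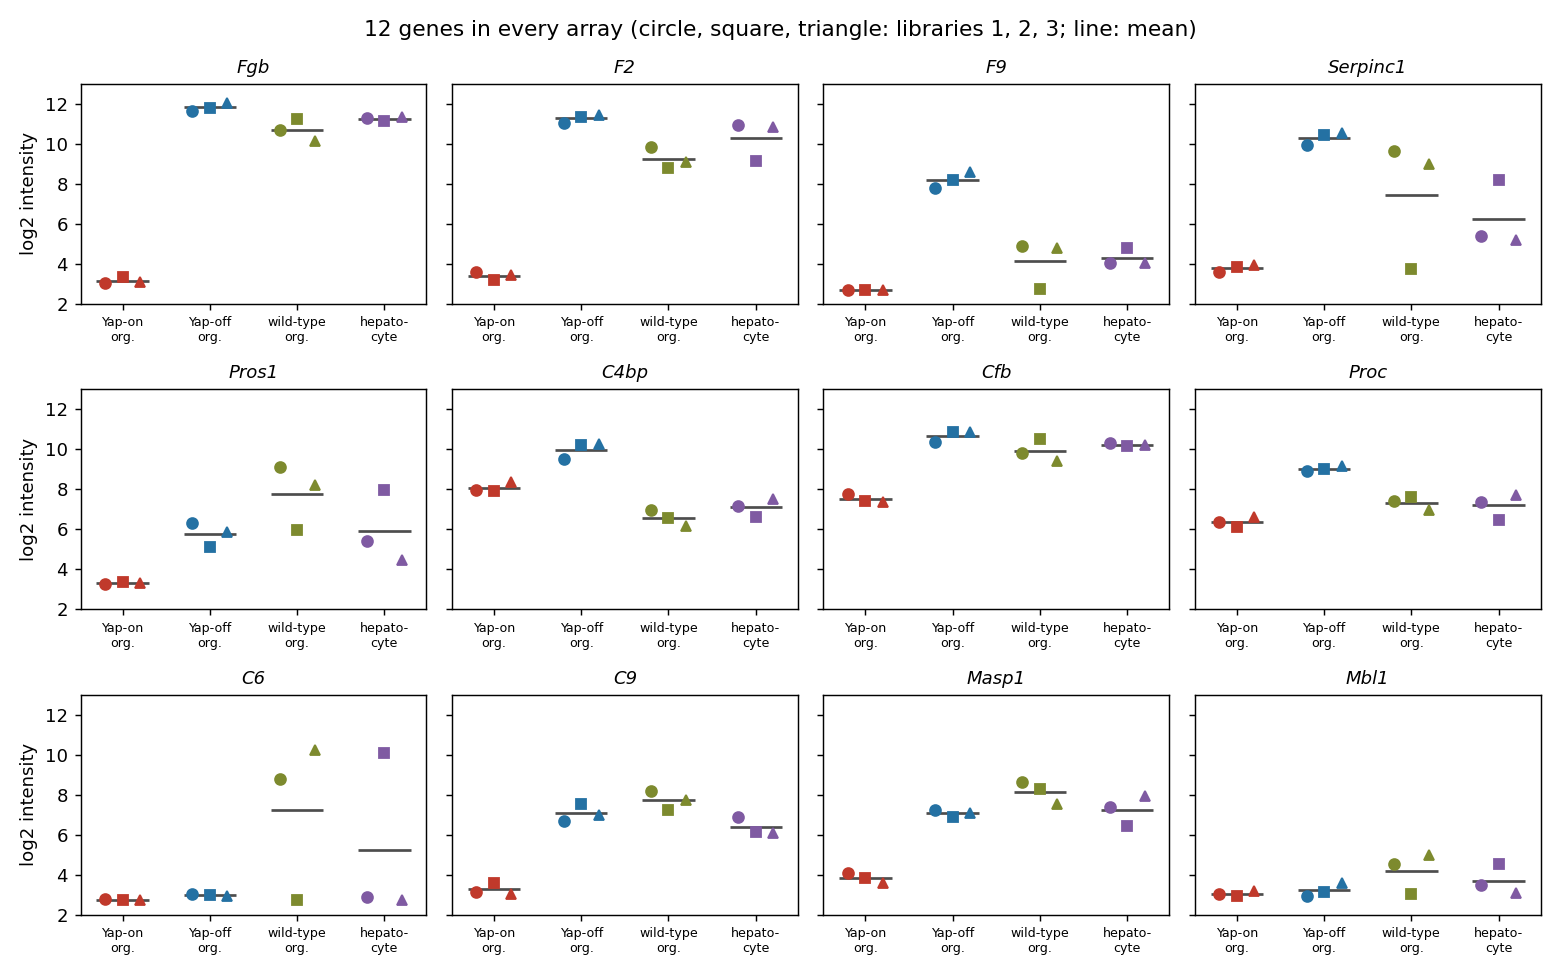
Log2 intensity (vertical axis) of 12 member genes in 4 groups of 3 libraries (circle, square and triangle are libraries 1, 2 and 3, the line is the mean). Fgb and F2 separate Yap-on arrays from all others, C4bp is higher in Yap-on than in wild-type organoid arrays, and C6 is high only in wild-type organoid 1 and 3 and hepatocyte 2.

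The terminal pathway was mixed, with 3 of 6 measured genes called and a median difference of -3.66. Hc, the mouse C5 gene, whose product starts the membrane pore, read 3.19, 3.24 and 3.28 in Yap-on and 8.33, 8.45 and 8.89 in Yap-off arrays, a difference of -5.32 (SE 1.19, adjusted p = 0.018). Libraries labelled wild-type organoid read 7.86, 3.09 and 6.71 and those labelled hepatocyte 4.27, 7.41 and 3.69, so library 2 of the first and libraries 1 and 3 of the second were low. The call of Hc was lost with any of 5 libraries left out (adjusted p between 0.056 and 0.067). C9, which forms the wall of the pore, differed by -3.80 (SE 0.32, adjusted p = 4.7e-05) and was above the array median in all 9 arrays other than Yap-on. C8g, a chain of C8, differed by -4.51 (SE 0.78, adjusted p = 0.0048). The other chains, C8a and C8b, are neighbours on chromosome 4 and were lower in every Yap-on array. Their differences were -2.42 and -3.51, with adjusted p of 0.098 and 0.082 across 12 arrays and of 0.00036 and 0.00011 in the 6 arrays alone.

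C6, the pore protein that joins C5b, followed another pattern. It read 2.80, 2.74 and 2.72 in Yap-on and 3.05, 2.97 and 2.92 in Yap-off arrays, below the array median in all 6, and its difference of -0.23 (SE 2.14, adjusted p = 0.96) was not called. In libraries labelled wild-type organoid it read 8.79, 2.73 and 10.23 and in those labelled hepatocyte 2.87, 10.07 and 2.75. It was thus high in the same 3 libraries that carried macrophage and endothelial markers and below the array median in the other 9. The part of those markers in this pattern was not tested. The upstream bases of C6 (chr15:4726960-4727209, plus strand, GRCm38.p6, RefSeq) are shown beside this pattern, and they hold none of the 4 motifs.
C6: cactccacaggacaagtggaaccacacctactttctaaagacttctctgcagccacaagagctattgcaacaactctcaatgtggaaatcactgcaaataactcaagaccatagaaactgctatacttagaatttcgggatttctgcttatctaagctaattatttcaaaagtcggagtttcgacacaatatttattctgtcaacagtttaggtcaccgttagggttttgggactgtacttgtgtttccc

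Of the lectin pathway, in which mannose-binding lectins bound to sugars switch on MASP proteases, 3 of 4 genes fell, with a median difference of -2.81. Masp2, the protease that cuts C4 and C2, read 4.44, 4.24 and 4.42 in Yap-on and 8.28, 8.85 and 9.29 in Yap-off arrays, a difference of -4.44 (SE 0.58, adjusted p = 0.00093). Masp1, which activates Masp2, differed by -3.23 (SE 0.38, adjusted p = 0.00045). Mbl2, mannose-binding lectin C, differed by -2.40 (SE 0.66, adjusted p = 0.044), a call that was lost with any of the 6 libraries left out (adjusted p between 0.070 and 0.13). Mbl1, mannose-binding lectin A, read 3.06, 2.92 and 3.19 in Yap-on and 2.92, 3.14 and 3.59 in Yap-off arrays, the only member whose arrays overlapped. Its difference was -0.16 (SE 0.49, adjusted p = 0.86), and it was above the array median only in libraries labelled wild-type organoid 1 and 3 (4.54, 3.05 and 4.98 over the group) and hepatocyte 2 (3.47, 4.53 and 3.11 over the group).

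The other genes of both cascades were taken from a list of 57, of which 52 were measured. Of these 14 fell and 1 rose in Yap-on against Yap-off organoids, with a median difference of -0.59, where the background was 4.36% lower and 7.09% higher. The 5 largest falls were in secreted liver proteins. Pzp, a proteinase inhibitor of the macroglobulin family, differed by -8.22 (SE 0.43, adjusted p = 1.4e-06), and Vtn, vitronectin, which blocks the terminal pore and binds the plasminogen activator inhibitor, by -7.89 (SE 0.22, adjusted p = 2.4e-08). Serping1, the C1 inhibitor, differed by -7.52 (SE 0.49, adjusted p = 6.9e-06). C4b, a complement C4 gene, and C1s1, the C1s protease that cuts it, differed by -6.18 (SE 1.13, adjusted p = 0.0067) and -5.19 (SE 0.69, adjusted p = 0.0011). C4a and C4b are near-identical in sequence, so their rows may share signal. Ggcx and Vkorc1, the vitamin K enzymes that prothrombin and factors VII, IX and X need, fell by less, with differences of -1.27 and -1.11.

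Plau, urokinase, which activates plasminogen, was the gene that rose. It read 7.10, 7.03 and 7.48 in Yap-on and 4.80, 4.84 and 4.91 in Yap-off arrays, a difference of 2.35 (SE 0.48, adjusted p = 0.011), while its substrate Plg fell. Cd55 and F3, chosen after their values were seen, ran the same way without being called across 12 arrays. Cd55, which shields cells from C3 convertases, read 7.48, 6.84 and 7.09 in Yap-on and 3.53, 3.74 and 3.13 in Yap-off arrays, a difference of 3.68 (SE 1.72, adjusted p = 0.2), with adjusted p = 3.8e-05 in the 6 arrays alone. F3, tissue factor, the cell-surface trigger of clotting, read 6.54, 6.68 and 6.65 in Yap-on and 5.12, 5.17 and 5.51 in Yap-off arrays, a difference of 1.36 (SE 0.78, adjusted p = 0.29), with adjusted p = 0.00042 in the 6 arrays alone. In those 6 arrays 26 of the 52 genes fell and 3 rose, with 12% and 19.1% of all genes as background.

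C1qa, F8 and Clu were also chosen after their values were seen and stand for no group. C1qa, a chain of C1q, read 3.39, 3.61 and 3.77 in Yap-on and 3.73, 4.87 and 4.27 in Yap-off arrays, and 10.20, 3.70 and 11.04 and 3.88, 11.63 and 4.46 in libraries labelled wild-type organoid and hepatocyte. The other C1q chains were called lower in Yap-on organoids in the 6 arrays alone, C1qb with adjusted p = 0.01 and C1qc with adjusted p = 0.042, while C1qa was not (adjusted p = 0.098). F8, factor VIII, read 3.52, 3.44 and 3.39 in Yap-on and 3.16, 3.29 and 3.46 in Yap-off arrays, and 10.35, 3.36 and 9.50 and 3.61, 6.49 and 3.30 in the same libraries. C1qa and F8 were highest in the 3 libraries with high macrophage and endothelial markers. Clu, clusterin, a secreted inhibitor of the terminal pore, read between 11.95 and 12.09 in Yap-on and between 11.96 and 12.01 in Yap-off arrays, a difference of 0.02 (SE 0.78, adjusted p = 0.99). It read 9.65, 12.01 and 9.22 in libraries labelled wild-type organoid and 11.59, 9.08 and 11.64 in those labelled hepatocyte, lowest in those same 3 libraries.

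**Figure D5:**
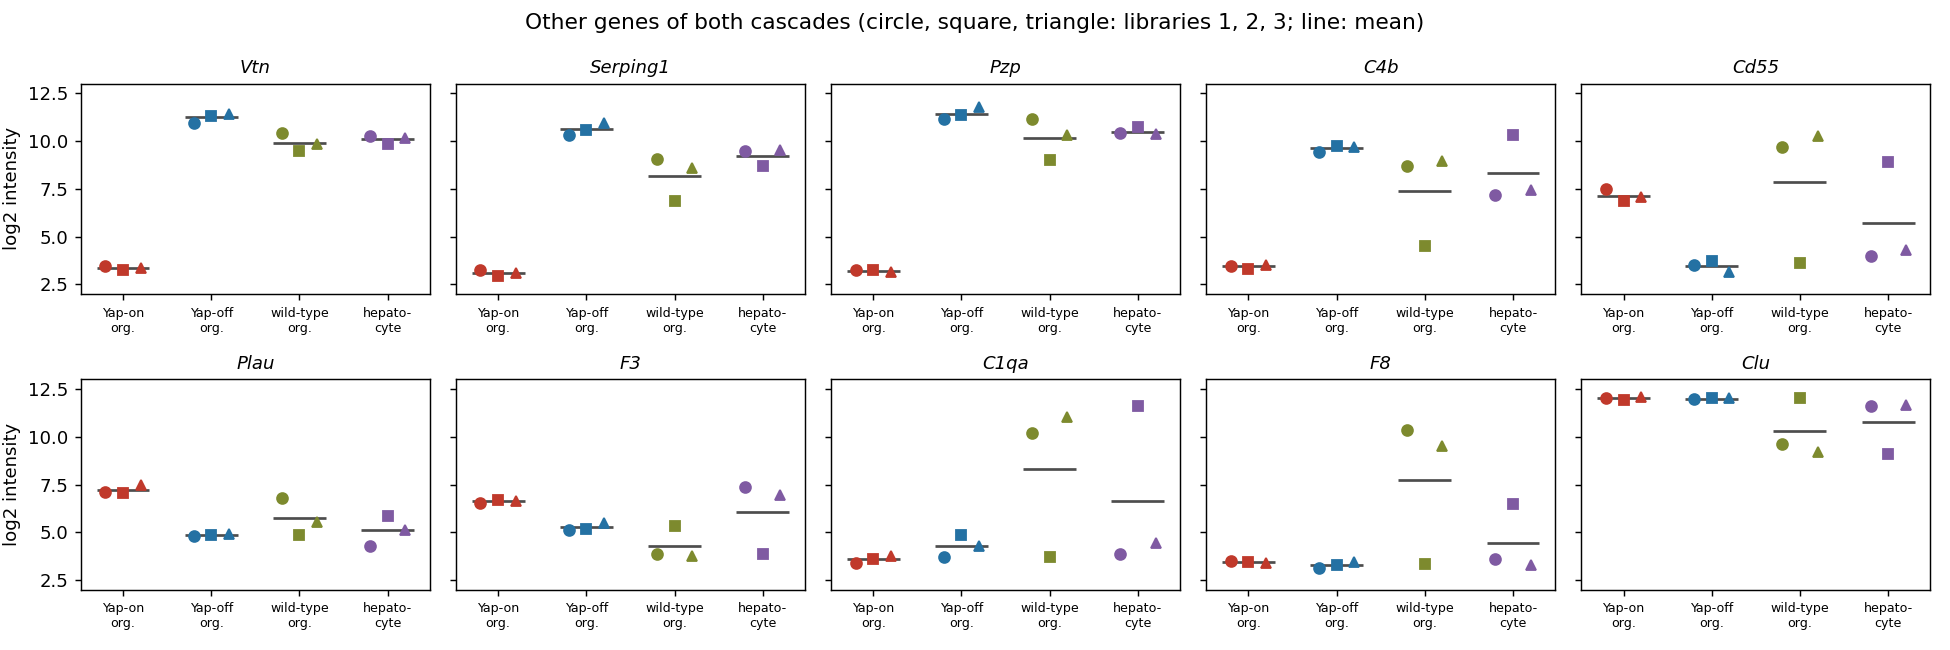
Log2 intensity (vertical axis) of 10 further genes of both cascades in 4 groups of 3 libraries (circle, square and triangle are libraries 1, 2 and 3, the line is the mean). Vtn, Serping1, Pzp and C4b are low in Yap-on arrays, Plau, Cd55 and F3 are higher in Yap-on than in Yap-off arrays, and C1qa and F8 are high in wild-type organoid 1 and 3 and hepatocyte 2.

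Set against wild-type organoids, 13 of the 33 members fell in Yap-on organoids and 1 rose, with 1.45% of all genes called lower and 4.02% called higher. The median difference was -2.84, against -0.02 over all genes. This comparison shares the Yap-on arrays with the one above, so the values are not independent of it. The fibrinogen genes differed by -7.53 (Fga), -7.53 (Fgb) and -7.27 (Fgg), Kng1 by -6.44, F2 by -5.82, Serpind1 by -4.49 and C9 by -4.46. Pros1 differed by -4.46 (SE 0.93, adjusted p = 0.021), a call that was lost in 6 of 16 alternatives. C4bp was the member that rose, by 1.50 (SE 0.29, adjusted p = 0.015), and it lost the call without wild-type organoid 3 (adjusted p = 0.066), Yap-on 1 (0.052) or Yap-on 3 (0.067).

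The count depended on a single library. Without the library labelled wild-type organoid 2 it was 30 members, with 30.2% of all genes called either way in that fit. Without that library and hepatocyte 2 it was 31 lower and 1 higher, with 16.4% and 24.6% of all genes called. Pros1 then differed by -5.37, F2 by -6.05 and C4bp by 1.50. Library 2 held 13 members below its array median, among them Plg, Serpinc1, Hc and F10, whereas wild-type organoid 1 and 3 held 1 and 2. Its macrophage and endothelial markers were low and its Krt19 was high, as given above, and their part in the count was not tested.

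Yap-off organoids, which had 3 weeks of Yap in the liver before doxycycline was withdrawn, held many members above the level of wild-type organoids. Of 33 members 16 rose and none fell, with 1.42% of genes called higher, and 21 lay above every wild-type organoid array, as did 10.9% of all genes. The median difference was 2.05, against 0.05 over all genes. Among the called members F9 rose by 4.07 (SE 0.50, adjusted p = 0.0054), F12 by 3.89, C4bp by 3.41 (SE 0.29, adjusted p = 0.00093), F5 by 3.37 (SE 0.43, adjusted p = 0.0059) and F7 by 2.97. Serpinf2 and Hrg rose by 3.19 and 3.14. The fibrinogen genes rose by less, between 1.14 (Fgb) and 1.57 (Fgg). No member of the terminal pathway was called, and C6 differed by -4.27 (SE 2.14, adjusted p = 0.31).

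These counts were less firm than those between Yap-on and Yap-off organoids. They came to 9 without wild-type organoid 3 (0.818% of all genes called either way), 8 without Yap-off 2 (0.507%) and 8 without Yap-off 3 (0.537%). In the 6 arrays alone 3 members were called (0.306% of all genes), and F5 and F9 were no longer called (adjusted p = 0.093 and 0.085). Without wild-type organoid 2 and hepatocyte 2, 22 rose and 7 fell (Pros1, C2, C6, C8b, C9, Masp1 and Mbl1), with 18.2% and 14.1% of all genes called. F9 then differed by 3.37, F12 by 3.25, C4bp by 3.41 and C6 by -6.53 (adjusted p = 3.7e-07). All Yap-off arrays lay above wild-type organoid 1 and 3 for 22 members and for 28% of all genes. Among the libraries left in that fit, wild-type organoid 1 and 3 carry the macrophage and endothelial markers.

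Against the libraries labelled hepatocyte, 17 members fell in Yap-on organoids and none rose, with 1.93% of genes called lower and a median difference of -2.62 (-0.07 over all genes). The falls were largest in Fga (-8.22), Fgb (-8.10), Fgg (-8.00), Kng1 (-7.75) and F2 (-6.89), each called, and C2 differed by -4.11 (SE 0.24, adjusted p = 2.9e-06). C4bp was 0.96 (adjusted p = 0.097) and not called. Without wild-type organoid 2 and hepatocyte 2, 24 members fell, with 9.17% of all genes called lower, and F2 differed by -7.48 and Kng1 by -8.14. Sex cannot be told apart from the label in that fit.

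In Yap-off organoids 10 members were higher than in libraries labelled hepatocyte and 1 was lower, with 0.878% and 1.02% of all genes as background, and 26 lay above every one of those arrays, as did 11.1% of all genes. The median difference was 1.84 (0.02 over all genes). F9 rose by 3.91 (SE 0.50, adjusted p = 0.0059), Serpind1 by 3.56 (SE 0.23, adjusted p = 0.00011), F7 by 3.15, Masp2 by 3.04, F5 by 2.90 and C4bp by 2.87 (SE 0.29, adjusted p = 0.002). C2 was the member that fell, with a difference of -1.29 (SE 0.24, adjusted p = 0.029), with 6.86, 6.81 and 7.05 in Yap-off arrays and 8.27, 8.18 and 8.15 in libraries labelled hepatocyte, a call that was lost in 8 of 16 alternatives. The count of 11 was 5 without hepatocyte 1 (0.632% of all genes called either way), 7 without hepatocyte 3 (0.792%), 6 without Yap-off 2 (0.833%) and 4 without Yap-off 3 (0.567%). Without wild-type organoid 2 and hepatocyte 2, 22 were higher and 1 lower, with 5.23% and 8.78% of all genes called, and F9 differed by 4.15. All Yap-off arrays lay above hepatocyte 1 and 3 for 28 members and for 18% of all genes. Across both comparisons, 21 members lay higher in every Yap-off array than in all 6 arrays of wild-type organoids and hepatocytes, as did 4.51% of all genes. Without wild-type organoid 2 and hepatocyte 2 this held for 22 members and 9.2% of all genes.

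No member was called between wild-type organoids and hepatocytes by limma, and 10 of 33 had an unadjusted p under 0.05, as did 8.84% of all genes. In the whole array 5 genes were called in each direction. The spread inside these groups was large: the median SD of a member was 0.13 in Yap-on and 0.29 in Yap-off arrays, 1.05 over libraries labelled wild-type organoid and 0.63 over those labelled hepatocyte. C6 had the largest SD in both labelled groups, 3.98 in wild-type organoids and 4.19 in hepatocytes. The count was 7 without wild-type organoid 2, 4 without hepatocyte 2 and 2 without wild-type organoid 3, with 8.05%, 4.36% and 0.0903% of all genes called either way in the same fits. Without hepatocyte 2 and wild-type organoid 2 together, 15 members rose in wild-type organoids, among them Serpinc1, Plg, Pros1, Hc, C6, C8a, C8b, C8g and C9, with 12.4% of all genes called higher. In the same fit 8 fell (Fga, Fgb, F2, F11, F12, Kng1, Cfb and Cfi), with 18.3% of all genes called lower. The libraries that remain differ in their macrophage and endothelial markers, and in Xist and Eif2s3y.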

How the data were processed

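RNA of 12 libraries was amplified and labelled with biotin, per the labels' protocols. The deposited intensities were made by the authors with RMA (no version given), per the submitters' processing notes. They are on a linear scale, and log2 was taken here. Genome build, scan dates and detection calls were not used here.

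Of 34760 array rows, 22961 had an annotation entry and 21640 named 1 gene. Where a gene had more than 1 row (954 genes) the brightest on average was kept, giving 19937 genes. All 12 arrays were fitted by group in limma 3.58.1 (R 4.3.3, lmFit and eBayes, degrees of freedom: residual 8, prior 1.76) in 6 comparisons, with Benjamini-Hochberg adjustment over all genes and a threshold of 0.05. SE is limma's. With 3 arrays against 3, a two-sided permutation test cannot go below 0.1, so none was run. The number of arrays limits the precision. No 2 arrays were identical. The fit was also run on simulated data with independent noise for each gene. Mixed libraries within a group were not simulated, so that run does not bear on them.

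Members and lists were chosen with earlier results of these data known. Array values are given for the member with the largest and smallest difference of each role class and for further members picked after their values were seen (Fga, F9, Serpinc1, Proc, Cfb and C2). Of the 57 further genes, up to 5 called each way with the largest difference are named, and others were chosen after their values were seen. The alternatives were renewed quantile normalization, median centring, another choice of row, a filter on the lowest 30% of genes, the 6 arrays alone, a trended robust eBayes, weights per array, a block on replicate number, leaving out wild-type organoid 2 and hepatocyte 2, and leaving out each library. Promoters are RefSeq's (GRCm38.p6). Figures used matplotlib 3.10.9.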

Additional observations from a re-analysis of the deposited data

How the results depend on the processing

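The members called between Yap-on and Yap-off organoids numbered 28 and lay between 26 and 31 under the other settings and between 25 and 27 with a library left out, and their median difference lay between -4.69 and -4.40 with a library left out. Over single members and settings of that comparison, the sign turned only for Mbl1, whose difference was between -0.31 (without Yap-off 1) and 0.025 (without Yap-off 3) with a library left out. Yap-on against wild-type organoids (14) gave 32 without wild-type organoid 2 and hepatocyte 2, 33 with array weights and 12 to 30 with a library left out. Yap-off against wild-type organoids (16) gave 3 in the 6 arrays alone, 29 without those libraries and 8 to 23 with a library left out. Wild-type organoids against hepatocytes (0) gave 23 without them, 18 with array weights and 0 to 7. Yap-on organoids against hepatocytes (17) gave 26 with array weights and 14 to 17. Yap-off organoids against hepatocytes (11) gave 23 without them, 23 with array weights and 4 to 10. The further genes of both cascades (15) gave 29 in the 6 arrays, 28 without those libraries, 25 with array weights and 10 to 14. Over all genes, 870 fell and 1413 rose between Yap-on and Yap-off organoids in 12 arrays, against 2395 and 3817 in 6. The share of all genes called is not given for array weights, nor for several other settings listed here. Counts without that share cannot be read as a result about the members. The causes of these shifts were not tested.

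The replicate numbers were not treated as pairs in the main fit. The correlation of same-numbered deviations from the group mean was 0.07, 0.03 and -0.06 between Yap-on and Yap-off arrays. It was -0.51, -0.71 and -0.66 between wild-type organoids and hepatocytes, and lay between -0.14 and 0.12 in the other comparisons. The mixed libraries enter the values of wild-type organoids and hepatocytes, so these cannot decide whether samples were paired. With the replicate number as a block, 26 members were called between Yap-on and Yap-off organoids (Hc and Mbl2 were lost), 13 in Yap-on and 10 in Yap-off against wild-type organoids, 0 between wild-type organoids and hepatocytes, 15 in Yap-on and 7 in Yap-off organoids against hepatocytes, and 11 of the further genes. The share of all genes called with the block is not given, so these counts have no background beside them.

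Signal over background limits the low members: in Yap-on arrays 26 lie below the array median, where the size of a fall cannot be told from background.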

Other observations

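The row shared by Klkb1, plasma prekallikrein, and Cyp4v3 read 3.72, 3.75 and 3.97 in Yap-on arrays, 6.70, 6.90 and 6.52 in Yap-off arrays, 6.62, 4.87 and 6.50 in libraries labelled wild-type organoid and 5.98, 6.73 and 5.51 in those labelled hepatocyte. It cannot be assigned to either gene and was not tested.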
